A study of Mus musculus with 2 samples.

Results

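The dermal papilla is the cluster of mesenchymal cells at the base of the hair follicle, and it instructs the epithelium above it when to grow and what kind of hair to make. Its cells keep a set of transcription factors that set mesenchymal identity, hair type and signal output. This report covers 9 of these genes, Sox2, Sox18, Twist1, Twist2, Tbx18, Alx4, Prdm1, Prrx1 and Bnc2, which were taken by gene symbol from the 32285 genes of the deposited count tables. All 9 had transcripts in both libraries.

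Dorsal skin of male C3H/HeN mice was measured in a control group that received vehicle and in an androgenetic alopecia (AGA) model, in which testosterone propionate (TP) was injected subcutaneously at 0.5 mg a day. Treatment began at 7 weeks of age and skin was taken at 9 weeks, and the skin of 15 mice was pooled into 1 library per group. Skin of mice given TP together with an antibody against CXCL12 is not analysed here. With 1 library per group, a difference between TP and control has no replicate check, so no test was made, and pooled animals give no spread between mice.

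The droplet assay tags each captured molecule at the 3′ end of its transcript with a random barcode, the unique molecular identifier (UMI), and PCR copies add nothing to the count. The control library kept 39076 cells (median 2066 UMIs per cell) and the TP library kept 18542 cells (median 5099.5), and 303 cell barcodes were found in both. More barcodes were set aside for over 10% mitochondrial counts in TP, 5871 of 25931, than in control, 3465 of 45709, and the part of this in the ratios was not tested beyond a stricter limit of 5%. Levels are UMIs of a gene per 1000000 UMIs of a cell class (CPM), and ratios are TP over control. Values in parentheses are 95% intervals that cover counting error only (exact Poisson for levels, exact conditional binomial for ratios, Clopper-Pearson for shares). CPM are given per transcript end and not per length, so levels are compared between cells and not between genes.

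Cells were clustered on variable genes that left out these 9, and clusters took names ending in "-like" from marker lists of each cell type. Dermal papilla cell-like (DPC-like) cells were 3576 of the control cells, or 9.15% (8.87 to 9.44), and 1212 of the TP cells, or 6.54% (6.18 to 6.90). All 8 papilla markers were detected in them in both libraries, and they summed to 14556 CPM in control against 15071 CPM in TP. The sum hides opposite differences. Vcan was at 4200 CPM in control and 7051 in TP, Hhip at 1433 and 1763, and Alpl at 270 and 417. Lower in TP were Corin at 2963 and 1639, Fgf7 at 2648 and 1776, Ndnf at 1228 and 883, and Rspo4 at 421 and 131. Crabp1 was at 1394 and 1410. The class held 2 clusters in very different shares. The cluster led by Ndnf and Tmem132c made up 62.8% of the control DPC-like cells and 21.0% of the TP ones, while the cluster led by the agouti gene a and Adgrb3 made up 37.2% and 79.0%. In the cluster led by Ndnf the differences in the markers that were lower in TP were smaller or turned. Corin was at 2905 CPM in control and 2883 in TP, Fgf7 at 1889 and 1843, Rspo4 at 550 and 497, and Ndnf itself at 1747 and 2606. Hhip was at 1631 and 2304 there, Alpl at 243 and 304, Crabp1 at 685 and 988, and Vcan at 2701 and 3169. The cluster led by a had Corin at 3025 CPM in control and 1433 in TP, and Fgf7 at 3466 and 1765. Rspo4 there was at 281 and 70.1, Ndnf at 668 and 596, and Vcan at 5816 and 7697. Hhip was at 1219 and 1673, Alpl at 300 and 436, and Crabp1 at 2159 and 1480. Ratios within both clusters are therefore given beside those of the class.

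The genes lie on separate loci of the GRCm38.p6 (mm10) build. Sox2 spans chr3:34649995-34652461 and lies inside the long non-coding gene Sox2ot, and Sox18 spans chr2:181669837-181671640. Twist1 spans chr12:33957671-33959831 and Prdm1 chr10:44437174-44528558. Bnc2 is the longest of the 9 at 409226 bases (chr4:84266804-84676029). RefSeq held promoter windows for 7 of the 9 genes, and Sox18 and Alx4 had no entry. The 250 bases before the start of Sox2, Twist1 and Prdm1 are shown because these 3 genes were higher together in the DPC-like cells of the TP library. Capitals mark matches to the CCAAT box (CCAAT, or ATTGG on the other strand) and to the E-box (CANNTG), the letters that TWIST proteins and their partners bind. The Prdm1 window belongs to a start inside the RefSeq span of the gene.
Sox2, chr3:34649745-34649994, plus strand: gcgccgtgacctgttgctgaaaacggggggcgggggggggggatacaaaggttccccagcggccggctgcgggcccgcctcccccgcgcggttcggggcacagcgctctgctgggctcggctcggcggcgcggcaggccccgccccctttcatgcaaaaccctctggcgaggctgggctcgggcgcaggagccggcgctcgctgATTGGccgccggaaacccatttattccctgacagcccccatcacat
Twist1, chr12:33957421-33957670, plus strand: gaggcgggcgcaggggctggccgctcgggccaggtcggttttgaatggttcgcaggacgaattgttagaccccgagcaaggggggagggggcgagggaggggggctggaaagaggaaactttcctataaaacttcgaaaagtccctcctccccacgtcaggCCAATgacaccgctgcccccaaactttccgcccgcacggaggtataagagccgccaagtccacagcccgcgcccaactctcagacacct
Prdm1, chr10:44458749-44458998, minus strand: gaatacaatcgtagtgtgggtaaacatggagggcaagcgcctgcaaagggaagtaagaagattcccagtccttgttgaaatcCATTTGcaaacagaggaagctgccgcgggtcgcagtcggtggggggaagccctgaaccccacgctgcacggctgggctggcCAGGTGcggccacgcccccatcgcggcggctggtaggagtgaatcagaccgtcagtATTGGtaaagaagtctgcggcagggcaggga
Each of these windows holds 1 CCAAT box, a motif found in 33.8% of all 32851 promoter windows of the same length. The windows of Twist2 and Tbx18, which were under 2-fold in DPC-like cells, also hold 1 each. Those of Prrx1 and Bnc2 hold 0. The Prdm1 window holds 2 E-boxes, while no E-box letters occur in the Sox2 and Twist1 windows, and 66.2% of all windows hold one. Both strands were searched, and a match is a run of letters and not a binding site.

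Of the 9 genes, 7 had most of their transcripts in mesenchymal cells. In the control library DPC-like cells held 83.5% of the Sox2 UMIs, 83.4% of those of Twist1, 86.8% of those of Alx4 and 78.2% of those of Prrx1. They held 78.9% of the Sox18 UMIs, 75.5% of the Tbx18 UMIs and 57.9% of the Twist2 UMIs. Inner root sheath-like keratinocytes, which should lack these genes, were at 0.107 to 4.10 CPM for these 7 genes and Prdm1 in both libraries, a level taken as the free RNA background. Prdm1 and Bnc2 had other patterns, described after the rest.

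**Figure D1:**
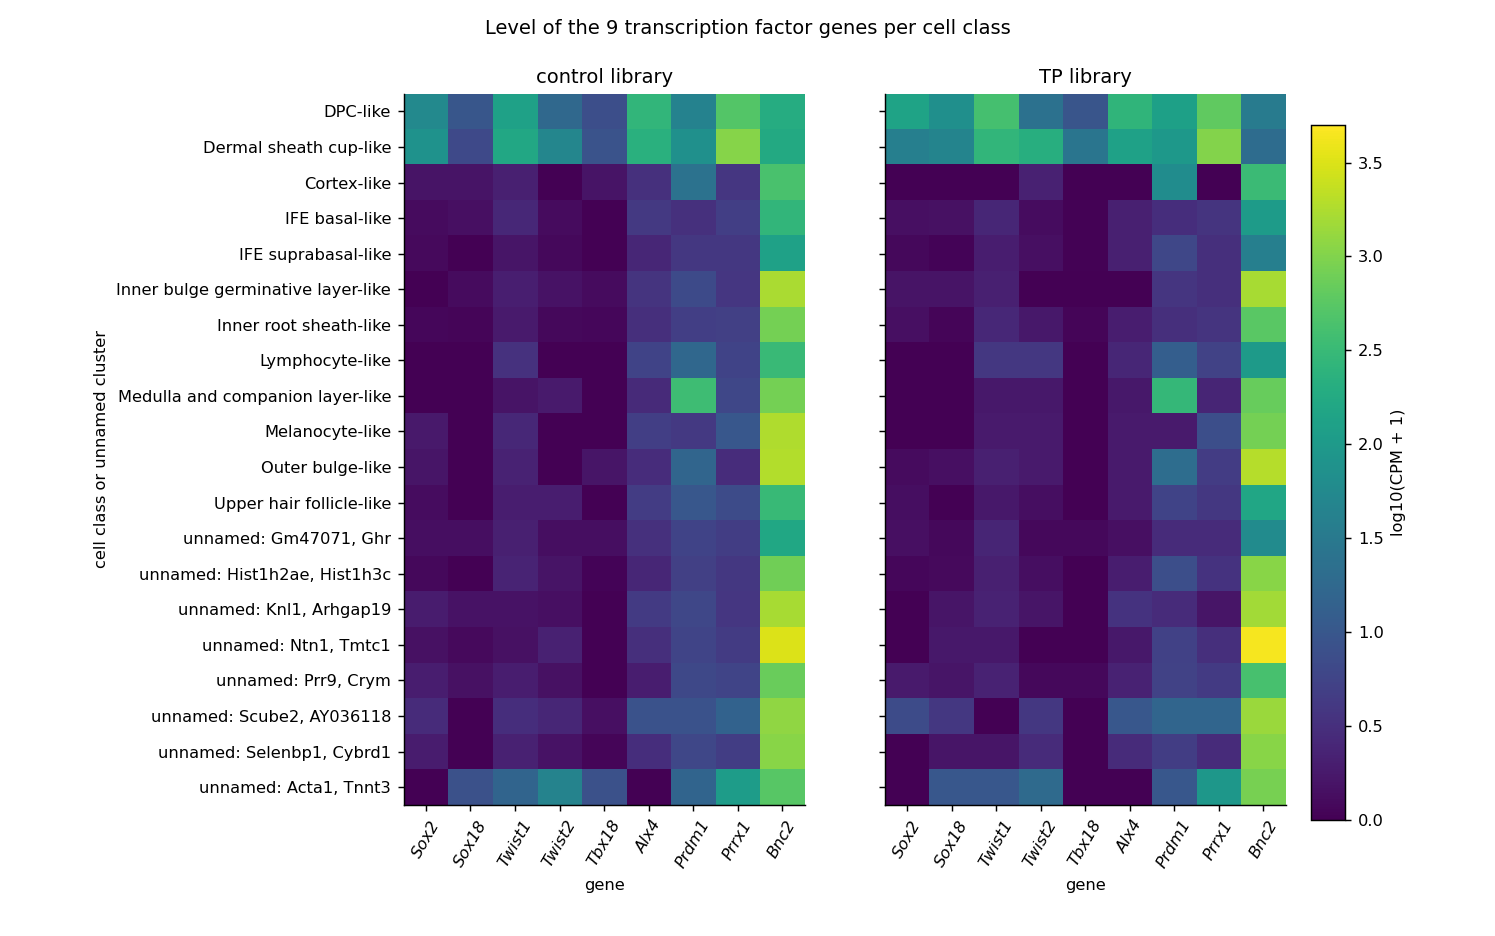
Level of each gene per cell class or unnamed cluster with at least 50 cells in both libraries, as log10(CPM + 1), control on the left and TP on the right. Sox2, Twist1, Alx4 and Prrx1 are brightest in the DPC-like and dermal sheath cup-like rows in both libraries, and Sox18, Twist2 and Tbx18 in TP. The small row led by the muscle gene Acta1 is also lit for several of these genes. In control it lies above the DPC-like row for Twist2 (44.0 against 16.5 CPM, from 6 UMIs) and Tbx18. There it also lies above the dermal sheath cup-like row for Sox18 (Sox18 and Tbx18 rest on 1 UMI each). Prdm1 is also bright in the medulla and companion layer-like row, and Bnc2 across the follicle keratinocytes. Dermal fibroblast-like and endothelial-like cells had fewer than 50 control cells and are not shown.

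Over all kept cells, 3 of the 9 genes were at least 2-fold different, all higher in TP, against 19.5% of the 17532 genes with at least 50 UMIs (8.74% higher and 10.7% lower). These were Sox18 with a ratio of 4.49 (3.67 to 5.52), Twist2 with 2.41 (2.11 to 2.75) and Twist1 with 2.34 (2.21 to 2.48). Whole libraries mix the number of mesenchymal cells with the level in each of them. Dermal fibroblast-like (DF-like) cells numbered 46 in control and 422 in TP, and they held 8.75% of the Twist2 UMIs in control and 51.4% in TP. With the cell classes at their control shares in both libraries, the ratio of Twist2 was 1.89, that of Twist1 1.75 and that of Sox18 3.18, and Sox18 alone stayed past 2-fold. The share of all genes past 2-fold was not taken at control shares. Alx4 had a ratio of 0.579 (0.549 to 0.610) over all kept cells and 0.931 at control shares, and Bnc2 went from 0.514 to 0.95.

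Within DPC-like cells 5 of the 9 genes were at least 2-fold different, against 11.7% of the 12654 genes with at least 50 UMIs there. Sox2, Sox18, Twist1 and Prdm1 were higher in TP, where 4.01% of all genes were, and Bnc2 was lower, where 7.65% were. The median log2 ratio was 0.46 over the 9 genes and -0.09 over all genes tested. Of the lists set beside the 9 further on, it was 0.45 for other mesenchymal transcription factors and 0.58 for partners and inhibitors of TWIST. It was 0.03 for other SOX genes and -0.17 for secreted signals of the papilla. The 9 genes were picked with earlier results of these libraries known, so their count past 2-fold is a description.

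Sox18, an SRY-related factor that is mutated in ragged mice, which have a sparse coat and vessel defects, had the highest ratio of the 9. Its level in DPC-like cells was 8.64 CPM (6.95 to 10.6) in control, from 90 UMIs, and 67.8 CPM (62.2 to 73.7) in TP, from 546 UMIs. The ratio was 7.85 (6.27 to 9.92), with 3.30 (2.15 to 5.03) in the cluster led by Ndnf and 11.1 (7.82 to 16.3) in the cluster led by a. Among the 5 subclusters described further on it was 1.72 to 3.87, below the ratio of the cluster led by a. In the subcluster led by Galnt13, with 1 control UMI in 46 cells, the interval was 0.362 to 90.4, which holds 11.1. Sox18 is also an endothelial gene, and endothelial-like cells held it at 54.7 CPM (14.9 to 140) in control against 70.7 CPM (50.7 to 95.9) in TP, intervals that overlap. The 6 endothelial markers summed to 10.0 CPM in control against 13.0 CPM in TP in DPC-like cells, with Cdh5 at 0 in TP, and their part in the Sox18 ratio was not tested. They summed to 7.58 CPM in control against 14.0 CPM in TP in the cluster led by a. In the subcluster led by a and Clstn2, with 480 of the 546 TP Sox18 UMIs, 1 of the 6 was detected in control and 3 in TP, at sums of 1.27 and 21.4 CPM, with Cdh5, Emcn and Cldn5 at 0 in both libraries. Of these 6 markers 1, Kdr, reached 50 UMIs in DPC-like cells, and its ratio was 1.5 (1.07 to 2.10), with 0.554 (0.194 to 1.29) in the cluster led by Ndnf and 2.98 (1.76 to 5.31) in that led by a, the cluster in which Sox18 also had its higher ratio. Kdr was named after its value was seen.

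Twist1, a basic helix-loop-helix factor that holds cells in a mesenchymal state, was at 131 CPM (124 to 138) in the DPC-like cells of control and 406 CPM (393 to 421) in those of TP. The ratio was 3.10 (2.91 to 3.30), and it was 2.15 (1.82 to 2.53) in the cluster led by Ndnf and 2.46 (2.28 to 2.65) in the cluster led by a. Its paralogue Twist2, also known as Dermo1, was at 16.5 CPM (14.1 to 19.2) in control against 22.7 CPM (19.5 to 26.3) in TP, and the ratio was 1.38 (1.11 to 1.70). Within the clusters the Twist2 ratio was 1.56 (1.09 to 2.19) in that led by Ndnf and 3.01 (2.05 to 4.55) in that led by a, both above the ratio of the class, because the cluster with the lower control level, 6.59 CPM against 25.7, made up more of the TP cells. Within the 5 subclusters described further on, the Twist2 ratio was 1.19 to 1.75 with an interval above 1 in 1 of them, and it was 1.65 with the subclusters at their control shares.

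Sox2, an SRY-related factor that marks the papillae of the coarser hair types, was at 55.0 CPM (50.6 to 59.7) in control against 137 CPM (129 to 146) in TP. The ratio of 2.5 (2.26 to 2.77) in the class was 1.51 (1.36 to 1.68) in the cluster led by a, which held 1083 of the 1106 TP UMIs. In the other cluster the ratio was 2.08 (1.22 to 3.46). The overlapping gene Sox2ot was at 22.4 CPM (19.6 to 25.4) against 58.0 CPM (52.8 to 63.5), also higher in TP.

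Prdm1, a zinc finger repressor also known as Blimp1 that marks papilla precursors, was at 42.2 CPM (38.4 to 46.4) in control against 124 CPM (116 to 132) in TP. The ratio was 2.93 (2.62 to 3.29), with 1.76 (1.40 to 2.21) in the cluster led by Ndnf and 4.20 (3.54 to 5.02) in the cluster led by a. Among the 5 subclusters it was 0.978 to 2.77, again below the ratio of the cluster led by a. The value of 2.77 was that of the subcluster led by Galnt13, from 5 control UMIs in 46 cells. Its interval of 1.16 to 8.63 holds 4.20.

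Alx4, Prrx1 and Tbx18 stayed under 2-fold in the class and in both clusters. Alx4 and Prrx1 are homeobox genes of skull, limb and skin mesenchyme. Alx4 was at 275 CPM (265 to 286) in control against 266 CPM (255 to 278) in TP, so TP over control was 0.966 (0.913 to 1.02). Prrx1 was at 518 CPM (504 to 532) against 625 CPM (608 to 643), so TP over control was 1.21 (1.161 to 1.255). Tbx18, a T-box gene of papilla precursors, was low, at 6.81 CPM (5.32 to 8.60) against 8.57 CPM (6.67 to 10.8), with a ratio of 1.26 (0.889 to 1.78). In the cluster led by Ndnf the ratio was 1.05 (0.926 to 1.19) for Alx4, 1.44 (1.33 to 1.55) for Prrx1 and 1.08 (0.431 to 2.36) for Tbx18. In the cluster led by a it was 0.907 (0.847 to 0.973) for Alx4, 1.21 (1.15 to 1.27) for Prrx1 and 1.23 (0.802 to 1.91) for Tbx18.

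**Figure D2:**
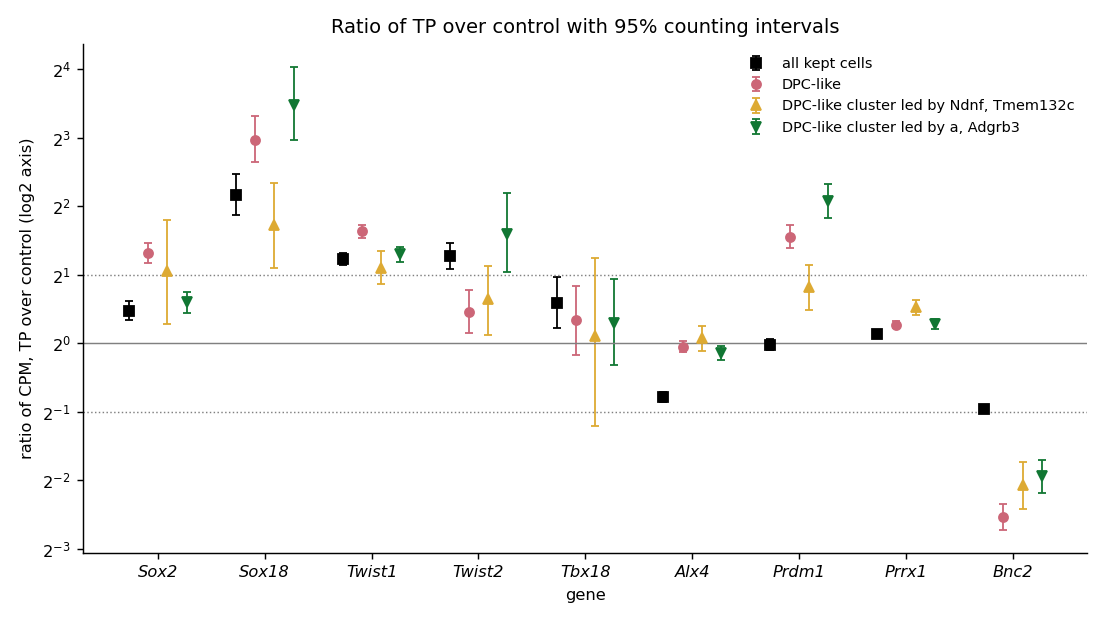
Ratio of CPM in TP over control for each gene on a log2 axis, with 95% counting intervals, in all kept cells (squares), DPC-like cells (circles), the DPC-like cluster led by Ndnf (upward triangles) and that led by the agouti gene a (downward triangles). The grey line marks 1 and the dotted lines 2-fold. Sox18 and Twist1 lie above 2 and Bnc2 below 0.5 in the class and in both clusters, while Alx4 lies close to 1 in all 3.

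DPC-like cells fell into 5 subclusters, and the members were spread unevenly among them. Sox2 marked 2 of them. In TP it was at 335 CPM (309 to 362) in the subcluster led by Galnt13 and Luzp2 and at 222 CPM (194 to 251) in that led by Fgf10 and Kcnip4, against 11.3 CPM (5.40 to 20.7) in that led by Tmem132c and Ndnf. Sox18 marked another. It was at 123 CPM (112 to 134) in the TP cells of the subcluster led by a and Clstn2, which also expresses the neuropeptide gene Vip, and at 3.71 CPM (1.01 to 9.49) in that led by Fgf10. Sox2 and Sox18, 2 SRY-related genes, were thus highest in different papilla subclusters in TP. In control Sox2 was also highest in these subclusters, at 237 CPM (167 to 326) in the Galnt13 subcluster and 107 CPM (97.0 to 117) in the Fgf10 one. For Sox18 in control the subcluster led by a held 31.7 CPM (20.5 to 46.8), and that led by Fgf10 held 2.16 CPM (0.986 to 4.09).

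The subclusters had very different sizes in both libraries. The subcluster led by a and Clstn2 was 5.31% of the control DPC-like cells and 43.3% of those of TP, and that led by Galnt13 1.29% and 23.8%. The subcluster led by Tmem132c and Ndnf was 43.2% and 12.1%. With the 5 subclusters at their control shares in both libraries, a setting chosen after these sizes were seen, the ratio of Sox18 was 3.04, and it was 1.98 for Sox2, 1.80 for Twist1 and 1.71 for Prdm1. At control shares 2 of the 9 genes, Sox18 and Bnc2, were still past 2-fold. The share of all genes past 2-fold was not taken at control shares, so this count has no background. Whether cells moved between these states or were lost and gained cannot be told apart.

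Within subclusters, Twist1 was higher in TP in all 5, with intervals above 1 in each. Its ratio ranged from 1.46 (1.26 to 1.68) in the Fgf10 subcluster to 5.44 (3.67 to 8.13) in the shallow one led by Tmem132c and Shisa9, and was 2.16 (1.86 to 2.53) in that led by a and Clstn2. In the shallow subcluster the inner root sheath markers summed to 5628 CPM in control, above its papilla markers at 5396 CPM, and to 1549 CPM in TP, where the papilla markers were at 8567 CPM, and their part in the Twist1 ratio was not tested. Prrx1 was also higher in all 5, with ratios of 1.15 to 1.67. The interval of the Alx4 ratio held 1 in all 5, with ratios of 0.805 to 0.992. In the subclusters other than the shallow one its level stayed between 263 and 326 CPM in either library. Prdm1 had intervals above 1 in 4 of 5 subclusters, Sox18 in 3 and Sox2 in 3. For Sox2 the subcluster led by a and Clstn2 gave 1.06 (0.756 to 1.51), at 53.2 CPM (38.4 to 71.9) in control against 56.1 CPM (49.0 to 64.1) in TP.

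**Figure D3:**
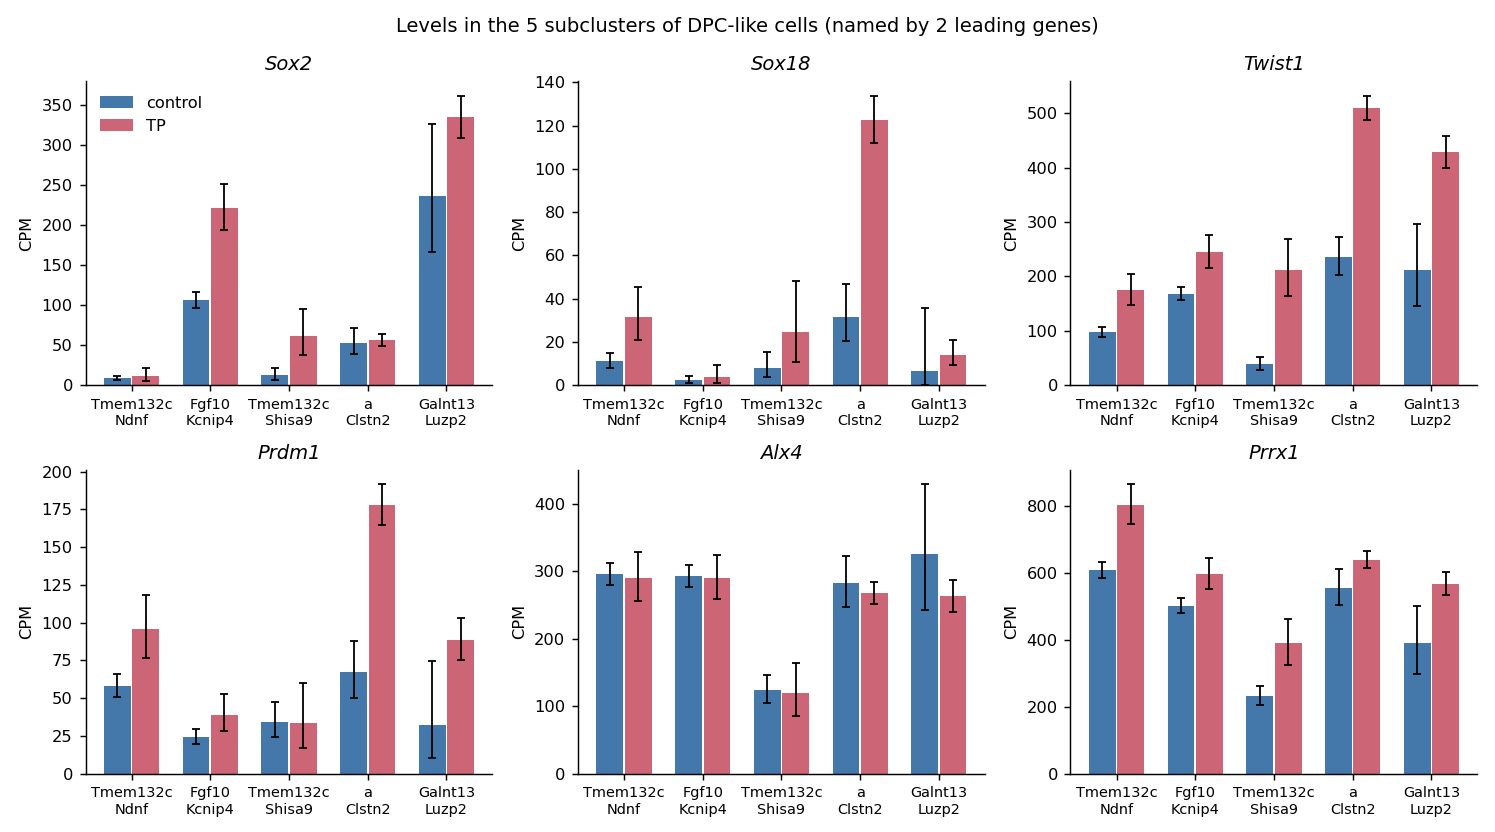
Levels in CPM of 6 of the genes in the 5 subclusters of DPC-like cells, each named by 2 leading genes (a is the agouti gene), with control in blue, TP in red and 95% Poisson intervals. Sox2 is highest in the Galnt13 and Fgf10 subclusters and Sox18 in that led by a, while the Alx4 intervals of both libraries overlap in every subcluster.

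Detection depends on how many UMIs a cell has, so shares of cells with a UMI were taken after each cell was thinned to 1000 UMIs, and 363 DPC-like cells of control and 65 of TP were too shallow for this. Twist1 was found in 9.99% (8.97 to 11.1) of control cells against 26.8% (24.2 to 29.4) of TP cells, or 24.8% and 69.3% without thinning. Sox2 was found in 4.36% (3.68 to 5.12) and 12.8% (10.9 to 14.9), and Prdm1 in 4.45% (3.76 to 5.22) and 10.7% (8.99 to 12.7). Sox18 was found in 0.840% (0.554 to 1.22) of control cells against 4.53% (3.40 to 5.90) of TP cells. Alx4 was found in 22.9% of both, with intervals of 21.5 to 24.4 and 20.5 to 25.5. In inner root sheath-like cells, whose median depths were 1867 UMIs in control and 3988 in TP against 2412 and 5451 in DPC-like cells, the thinned shares of these 5 genes were at most 0.520%.

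**Figure D4:**
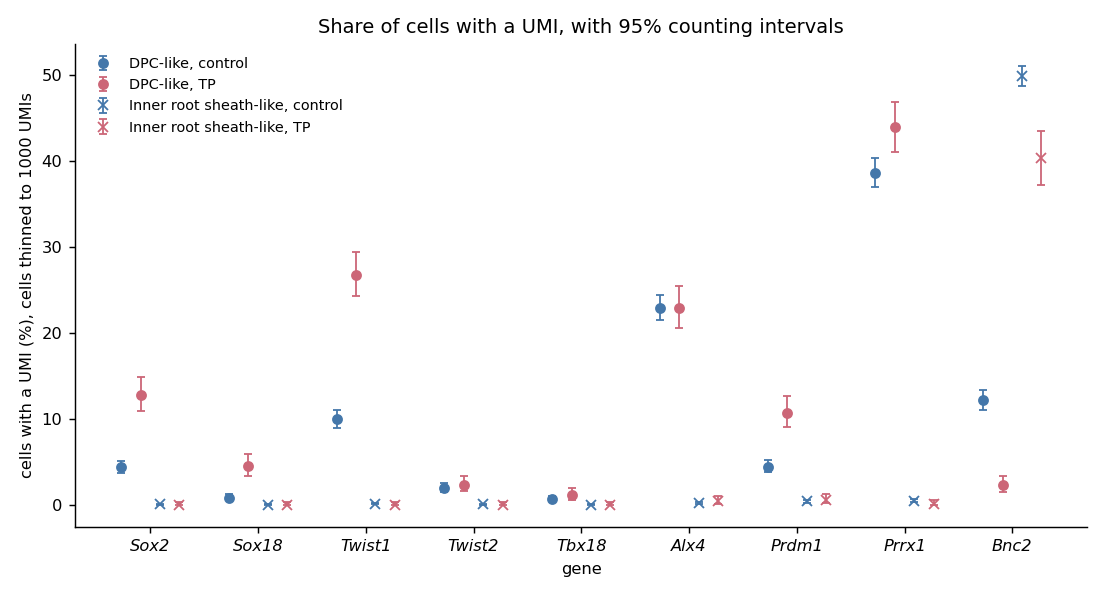
Share of cells with at least 1 UMI of each gene after thinning to 1000 UMIs, with 95% Clopper-Pearson intervals, in DPC-like cells (circles) and inner root sheath-like cells (crosses) of control (blue) and TP (red). For 8 genes the crosses lie near 0, and Bnc2 is found in far more inner root sheath-like than DPC-like cells.

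Pairs of the genes were counted in the same thinned DPC-like cell and set beside the product of their shares. Alx4 and Prrx1, the most often detected pair in control, were found together in 281 of 3213 control cells, 8.75% against 8.85%. In TP, Twist1 and Prdm1 were found together in 43 of 1147 cells, 3.75%, against a product of 2.87%, and Twist1 and Sox18 in 21 cells, 1.83% against 1.21%. Sox2 and Sox18 were found together in 4 cells, 0.349% against 0.581%. In control Sox2 and Twist1 were found together in 21 of 3213 cells, 0.654% against 0.435%. These counts are small, and cells of 1 library are not replicates. The pairs named are some of those counted. The products were taken over all DPC-like cells, whose subclusters differ in these genes. In TP, Twist1, Prdm1 and Sox18 were each highest in the subcluster led by a and Clstn2. The part of this in the shares of pairs was not tested.

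Dermal sheath cup-like cells, the contractile cells around the base of the follicle, carried the same genes at other levels. Prrx1 was at 1067 CPM (1000 to 1137) in control against 1034 CPM (961 to 1110) in TP, above DPC-like cells in both libraries. Twist2 was at 49.3 CPM (35.8 to 66.1) against 208 CPM (176 to 244), so TP over control was 4.21 (2.99 to 6.04), and Sox18 at 5.60 CPM (1.82 to 13.1) against 45.7 CPM (31.4 to 64.1), from 5 and 33 UMIs. Tbx18 was at 7.84 CPM in control against 26.3 CPM in TP, a ratio of 3.35 (1.35 to 9.44) from 7 and 19 UMIs. Sox2 went the other way, from 76.1 CPM (59.1 to 96.5) to 38.7 CPM (25.7 to 56.0), a ratio of 0.509 (0.315 to 0.801). Alx4 and Bnc2 were also lower in TP, with ratios of 0.599 (0.464 to 0.769) and 0.112 (0.0596 to 0.193). The papilla markers in this class summed to 6337 CPM in control against 2289 CPM in TP and the fibroblast markers to 4827 and 11454 CPM, and their part in these ratios was not tested.

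An unnamed stromal cluster led by Dkk2 and Gpc5 held 17 control and 306 TP cells. In TP it had Twist1 at 455 CPM (413 to 500), overlapping the DPC-like level, and Prrx1 at 793 CPM (737 to 852). Prdm1 was at 199 CPM (172 to 230), above the DPC-like level, and Alx4 at 80.6 CPM (63.5 to 101), below it. Its papilla markers summed to 1505 CPM, against 15071 CPM in DPC-like cells. DF-like cells in TP held Twist1 at 210 CPM (196 to 224), Twist2 at 117 CPM (106 to 128) and Prrx1 at 676 CPM (651 to 701), and Alx4 at 2.97 CPM (1.54 to 5.19).

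Prdm1 was highest outside the mesenchyme. Medulla and companion layer-like keratinocytes of the follicle held it at 359 CPM (339 to 379) in control against 290 CPM (270 to 310) in TP, above every other class with at least 50 cells. They held 56.1% of all Prdm1 UMIs in control and 29.0% in TP. The ratio in these cells was 0.808 (0.739 to 0.884). Over all kept cells the gene was at 20.4 CPM (19.5 to 21.2) in control against 20.05 CPM (19.3 to 20.8) in TP, so TP over control was 0.984 (0.930 to 1.04). Its side of 1 changed with the setting, from 0.941 with doublets kept to 1.29 as a mean over cells.

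Bnc2, a basonuclin zinc finger gene, was highest in follicle keratinocytes. Its UMIs were also found in melanocyte-like, fibroblast-like, lymphocyte-like and myeloid-like cells. The part of free RNA in the Bnc2 levels of these classes was not tested. The unnamed cluster led by Ntn1 and Tmtc1, which also carried Edar and Sox5 among its leading genes, held it at 3243 CPM (3189 to 3298) in control against 4440 CPM (4331 to 4552) in TP. Outer bulge-like cells held 1861 CPM (1794 to 1930) against 1906 CPM (1875 to 1938), and melanocyte-like cells 1831 CPM (1758 to 1906) against 839 CPM (787 to 893). DPC-like cells ranked 17 of 20 classes and clusters in control and 24 of 25 in TP, with 197 CPM (188 to 205) in control against 33.9 CPM (29.99 to 38.2) in TP, so TP over control was 0.172 (0.151 to 0.196). The ratio was 0.238 (0.187 to 0.3003) in the cluster led by Ndnf and 0.260 (0.220 to 0.306) in that led by a, both nearer 1 than that of the class. Of the 2050 control UMIs 823 came from the shallow subcluster led by Tmem132c and Shisa9, at 728 CPM (679 to 779), while the other 4 subclusters were at 38.4 to 169 CPM. The shallow subcluster had a ratio of 0.0969 (0.0611 to 0.146) and 3 others had ratios of 0.233 to 0.371, while the Galnt13 subcluster gave 0.721 (0.309 to 2.06), an interval that holds 1. Suprabasal epidermis-like cells were at 128 CPM (122 to 134) against 38.4 CPM (36.7 to 40.1), and in TP this interval overlaps that of DPC-like cells. The 8 inner root sheath markers in DPC-like cells summed to 2217 CPM in control against 389 CPM in TP and the 6 melanocyte markers to 219 CPM against 76.6 CPM. Both sums were also lower in TP, and their part in the Bnc2 ratio was not tested. DF-like cells kept Bnc2 at 265 CPM (196 to 349) against 216 CPM (202 to 231). Lymphocyte-like cells held it at 317 CPM in control against 103 CPM in TP, above DPC-like cells in both libraries. Myeloid-like cells were at 300 CPM from 24 UMIs in control and 38.6 CPM from 45 UMIs in TP.

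**Figure D5:**
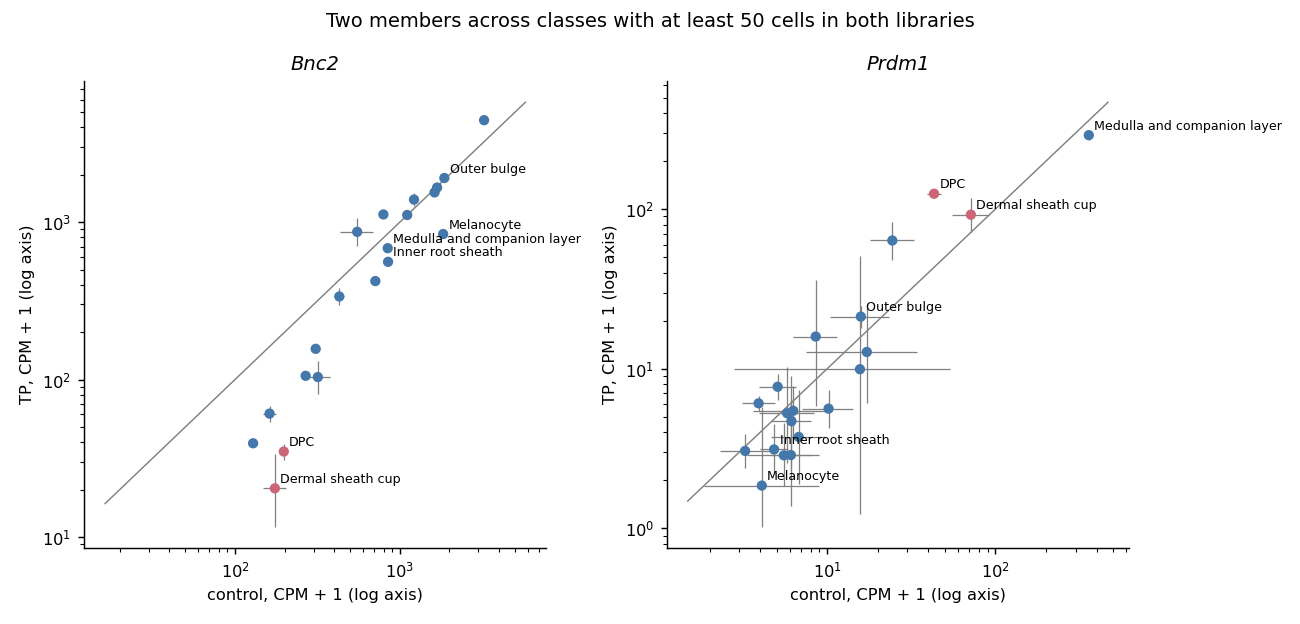
Levels of Bnc2 (left) and Prdm1 (right) in control (horizontal) and TP (vertical) as CPM + 1 on log axes, 1 point per class or unnamed cluster with at least 50 cells in both libraries, with 95% Poisson intervals and the line of equal levels. DPC-like and dermal sheath cup-like cells (red) lie below the line for Bnc2, and DPC-like cells above it for Prdm1.

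Over 45 profiles of a class in a library, the genes most like Sox2 in log2(CPM + 1) were Cacng7 (Pearson r = 0.96), Lrfn2 (0.96) and Alx4 (0.95). Twist1 was most like Sobp (0.96), Shox2 (0.96) and Prrx1 (0.95), Prrx1 like Pth1r (0.97), Shox2 (0.97) and Slit2 (0.96), and Tbx18 like Twist1 (0.95), Dnm3os (0.94) and Epha3 (0.94). Twist2 was most like Tbx15 (0.95), Col6a2 (0.95) and Rian (0.94). Alx4 was most like Sox2, Lrfn2 (0.94) and Cacng7 (0.93). Sox18 was most like Zfp423 (0.87), Clec14a (0.84) and Dtx1 (0.82), Prdm1 like Creg2 (0.79), Ednra (0.75) and Stac (0.72), and Bnc2 like Mycn (0.87), Sox5 (0.86) and Mtbp (0.85). The points share libraries and depth, so these values are a description.

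Other genes of the same families and pathways were set beside the 9. Of 36 other mesenchymal transcription factors, 30 reached 50 UMIs in DPC-like cells, of which 5 were at least 2-fold higher in TP, 2 lower and 23 neither. Over all genes tested in these cells 4.01% were higher and 7.65% lower, the shares to set beside this and the next lists. For the short lists a count of 1 or 2 genes says little against these shares. Foxd1, a forkhead gene of mesenchyme, had a ratio of 7.76 (4.86 to 13.0), and Snai1, a repressor of epithelial genes, one of 3.42 (2.87 to 4.09). Within the cluster led by a, these were 7.197 (3.97 to 14.3) and 3.37 (2.68 to 4.27). In that led by Ndnf the ratio of Snai1 was 2.27 (1.52 to 3.33), and Foxd1 had only 9 control and 7 TP UMIs. Foxp1 was lower at 0.337 (0.310 to 0.366), with 0.433 (0.370 to 0.504) in the cluster led by Ndnf and 0.538 (0.480 to 0.604), no longer past 2-fold, in that led by a. Of the dimer partners and inhibitors of TWIST, 1 of 8 was past 2-fold: Id2, which binds partner proteins and keeps them off DNA, had a ratio of 2.36 (2.24 to 2.48), with 2.36 (2.12 to 2.62) and 2.08 (1.95 to 2.22) in the clusters led by Ndnf and a, and the partner genes Tcf3, Tcf4 and Tcf12 had ratios of 1.07 to 1.39. Of the other SOX genes 2 of 8 were lower, Sox5 at 0.267 (0.239 to 0.297) and Sox21 at 0.362 (0.263 to 0.492). Within the cluster led by Ndnf, Sox5 was at 0.531 (0.449 to 0.623), no longer past 2-fold, and Sox21 at 0.497 (0.257 to 0.882). In that led by a they were at 0.376 (0.319 to 0.442) and 0.425 (0.282 to 0.634), so all these cluster ratios were nearer 1 than those of the class. Foxp1, Sox5 and Sox21 were higher in inner root sheath-like cells than in DPC-like cells in both libraries, and the part of keratinocyte RNA in their ratios was not tested. Of 14 secreted signals of the papilla 2 were higher, Bmp7 at 2.90 (2.56 to 3.30) and Wnt5a at 2.10 (1.98 to 2.22), and Fgf10 was lower at 0.456 (0.443 to 0.469). The ratios of these signals differed between the clusters. In the cluster led by Ndnf the ratio of Bmp7 was 0.982 (0.674 to 1.40), that of Wnt5a 1.22 (1.06 to 1.40) and that of Fgf10 0.821 (0.761 to 0.885). In the cluster led by a Bmp7 was at 3.18 (2.70 to 3.78), Wnt5a at 2.14 (1.99 to 2.30) and Fgf10 at 0.298 (0.289 to 0.308).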

How the data were processed

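Per the labels, whole dorsal skin was dissociated and sequenced with a droplet 3′ assay, and the authors made the deposited UMI counts with Cell Ranger 8.0.1 against mm10. The cells kept had 200 to 8000 genes and no more than 10% mitochondrial counts, and 7.5% of barcodes per library were removed as doublets by similarity to artificial doublets. The libraries held 130999979 (control) and 166929585 (TP) UMIs. Cells were integrated and clustered with Seurat 5.3.0 (R 4.3.3) on 2000 variable genes without the 9 genes and the listed genes that are not markers, 30 components and resolution 1, after the study's methods but with reciprocal PCA, which gave 31 clusters, 22 of them named. The listed endothelial genes are markers and were not left out. DPC-like cells were subclustered at resolution 0.3. UMIs were summed per class and library, and scipy 1.17.1 gave the intervals. The ratio intervals were tested on simulated Poisson counts, the model they assume, so this cannot show how they hold for real cells. Called genes had at least 50 UMIs and a ratio of at least 2 or at most 0.5. The 9 genes, the lists and the markers were chosen with earlier results of these data known. Named were all 9 genes, at most 4 genes of each list past 2-fold by size of ratio, and the 3 genes most correlated with each of the 9. One gene that this rule names is not reported here. Alternatives covered scaling (edgeR 4.0.16 TMM), cell weights, thinning, doublets, mitochondrial limit, depth, resolution, free RNA and class shares. Samples were grouped by the treatment label, and no test was made.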

Additional observations from a re-analysis of the deposited data

Results flagged for a closer look

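For 3 of the genes another named class had a ratio whose interval lay on the other side of 1 from that of DPC-like cells. With 1 library per group these differences between classes were not tested. The share of all genes of which the same holds was not computed, so the count of 3 is a description. Sox2 had a ratio of 2.5 in DPC-like cells and 0.509 in dermal sheath cup-like cells. Prdm1 had a ratio of 2.93 in DPC-like cells and 0.808 in medulla and companion layer-like cells. The remaining ratios are of low levels, in inner root sheath-like cells that of the free RNA background itself. For Prdm1 they were 0.553 in inner root sheath-like cells, at 3.84 CPM in control and 2.12 in TP, and 0.503 in upper hair follicle-like cells, at 9.20 and 4.62 CPM. For Prrx1 they were 0.275 in medulla and companion layer-like cells, at 5.20 and 1.43 CPM from 18 and 4 UMIs, and 0.507 in upper hair follicle-like cells, at 5.91 and 2.998 CPM. Among unnamed clusters, Bnc2, at 0.172 in DPC-like cells, had ratios above 1 in those led by Ntn1 (1.37), Hist1h2ae (1.41), Scube2 (1.14) and Acta1 (1.57), also not tested.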

How the results depend on the processing

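The count of genes past 2-fold over all kept cells was 3, and it was 1 when each class was weighted by its control share. In DPC-like cells the count was 5, and it was 2 with the control's subcluster shares, a setting chosen after seeing the data, as was counting the cluster led by Dkk2 as DPC-like. The other 17 counts were within 1.5 times these values, and the genes past 2-fold differed in 5 of these settings. The share of all genes past 2-fold was taken in the main setting only. With free RNA subtracted the DPC-like count was 4 of 8 genes, since Bnc2, which inner root sheath-like cells express, was left out. Without the cluster of lower papilla score the count was 5, with Sox2 at 1.51 and Twist2 at 3.01. Over all kept cells the count was 4 with Bnc2 at 0.476 (doublets kept), with Bnc2 at 0.492 (at most 5% mitochondrial counts) or with Sox2 at 2.14 (mean over cells). The ratio of Prrx1 over all kept cells was 1.10, and it turned to 0.974 with at most 5% mitochondrial counts. That of Prdm1 over all kept cells was 0.984, and it was 1.17 with TMM and with thinned cells, 1.29 as a mean over cells and 1.06 at the control's class shares. In DPC-like cells that of Alx4 was 0.966, and it was 1.03 with TMM and 1.11 with doublets kept. The cause was not tested. Leaving out a replicate was not possible with 1 library per group. No paired analysis was possible because each group is 1 library. Depth limited Tbx18, which had 71 control and 69 TP UMIs in DPC-like cells.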
